A study of Mus musculus with 6 samples.

Results

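The effect of estradiol (E2) on the messenger RNA of adipose tissue macrophages was followed in 4 of the 6 libraries of the series, 2 labelled E2 and 2 labelled with the ethanol vehicle (EtOH). The E2 mice had received 10 mg/kg of the estrogen by subcutaneous injection every 6 days for 30 days, and the EtOH mice the vehicle on that schedule. The third group of the series had 4-hydroxyestrone (4-OHE1), also at 10 mg/kg. Mice of all 3 groups were male, of the C57BL/6N strain and 12 weeks old, and ate a high-fat diet with 60 kcal% fat, so that lean, female and untreated animals are outside the comparison. The cells were live F4/80+ CD11b+ cells sorted from visceral white adipose tissue. That gate takes macrophages of every origin together, and a change can be a change in the mix of cells or in the RNA of each cell, which cannot be told apart in bulk RNA. Of the 24421 genes in the deposited table, 11014 had a mean of at least 1 RPKM over the 4 libraries and were tested. RPKM is a read count scaled to exon length and to library size. The labels do not say whether libraries of 1 group came from separate animals, so the spread on which each p-value rests may be technical.

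Estradiol acts through the nuclear receptors encoded by Esr1 and Esr2, which bind DNA and recruit coactivators, and through the membrane receptor Gper1. In obese fat, macrophages gather around dying adipocytes and take up their lipid, which they handle in lysosomes, store in droplets or export as cholesterol. These lipid-associated cells carry Trem2, Spp1 and Gpnmb. Other macrophages lie along vessels, and those of the abdominal cavity, next to the visceral fat, have a programme of their own with coagulation and adhesion genes.

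The E2 libraries held 5349386 and 5606659 exon reads and the EtOH libraries 18697511 and 35294046, so the E2 side is the less deeply sequenced. A tested gene had a median of 162 and 173 reads in the E2 libraries, and of 571 and 1086 in the EtOH libraries. Exons took 75.8% and 72.4% of the tags in E2, against 84.6% and 85.1% in EtOH. Because the deposited RPKM count every tag, tested genes had a median log2 change of -0.18 in those units and of -0.01 once rescaled to exon reads. A gene is called higher or lower only where its adjusted p, from limma with Benjamini-Hochberg adjustment over all tested genes, was below 0.05 under both scalings in 1 direction. Each log2 change printed, in parentheses after the levels, is E2 over EtOH on the log2(RPKM + 1) scale after rescaling to exon reads. Of the 2 adjusted p of a gene the less favourable is given, and levels are the deposited RPKM. The gate's own genes were present in the 4 libraries. Adgre1, which encodes F4/80, had 178 and 166 RPKM in E2 and 301 and 305 in EtOH, a called decrease of -0.62 (adjusted p = 0.0034). Itgam, which encodes CD11b, had 117 and 108 RPKM in E2 and 109 and 109 in EtOH and was not called.

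Of the 11014 genes, 200 were higher in E2 (1.82%) and 250 lower (2.27%), which makes 450 called genes (4.09%). Among them 119 higher and 102 lower genes moved at least 2-fold, and 25 higher and 14 lower genes at least 4-fold. Log2 changes lay within 1 of 0 for 96.4% of the tested genes. Counts of called members in the lists that follow stand beside these shares. A list with 1 or 2 calls gives no result about the list. The balance of directions depended on the scaling, with 202 higher and 618 lower as deposited and 350 higher and 250 lower relative to exon reads. On whole reads recovered from the authors' edgeR table, edgeR's quasi-likelihood test called 1278 of 12905 genes higher (9.9%) and 1198 lower (9.28%). It shared 191 of the 194 higher calls and 237 of the 238 lower calls of limma that it could test. Leaving out a library cut the limma calls to 66 higher and 34 lower without E2 replicate 1, 63 and 36 without E2 replicate 2, 23 and 14 without EtOH replicate 1, and 22 and 14 without EtOH replicate 2. Among 142 called genes chosen by a fixed naming rule, 20 kept their call under every alternative and without each library: Saa3, Alox15, Slpi, Prg4, Fkbp5, Ddit4, Cxcl13, Cfd, Amica1, Vcam1, Arg1, Car3, Gpx3 and Mgl2, which were higher, and Gpnmb, Spp1, Ctsl, Ctsd, Lpl and Lyz2, which were lower.

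**Figure D1:**
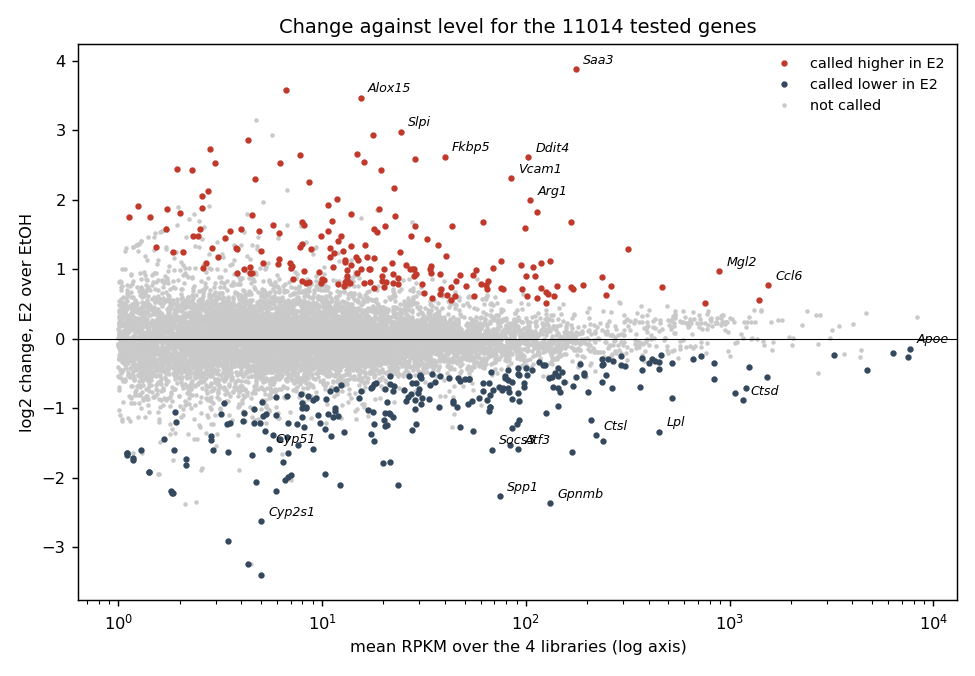
Log2 change of E2 over EtOH (vertical axis) against the mean RPKM of the 4 libraries (horizontal, log axis) for the 11014 tested genes, with the 200 genes called higher in red, the 250 called lower in dark blue and the others in grey. Saa3 stands highest at 3.88, and most of the cloud lies within 1 of 0.

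The genes with the largest increases were of mixed function. Saa3, an acute-phase serum amyloid that macrophages secrete, had 348 and 306 RPKM in E2, against 21.8 and 27.4 in EtOH (log2 change 3.88, SE 0.148, adjusted p = 0.000379). Alox15, the lipoxygenase that oxygenates arachidonic and linoleic acid, had 29.3 and 28.5 RPKM in E2, against 1.64 and 2.56 in EtOH (3.47, SE 0.236, adjusted p = 0.00123). Slpi, an inhibitor of neutrophil elastase and other serine proteases, had 47.9 and 38.7 RPKM in E2, against 5.25 and 5.51 in EtOH (2.98, SE 0.179, adjusted p = 0.000983). Each E2 library stood several-fold above both EtOH libraries for these genes, and the naming rule admitted only genes without overlap. Padi4, which converts arginine residues of histones to citrulline, had 17.3 and 10.6 RPKM in E2, against 1.52 and 1.76 in EtOH, a log2 change of 2.65 (SE 0.238), and its E2 libraries differed more than those of the other genes here. Cfd, the adipsin protease of the alternative complement pathway, had 27.5 and 27.5 RPKM in E2, against 4.39 and 4.78 in EtOH (2.54). Amica1, the leukocyte ligand of the junction protein CXADR, had 10.5 and 11.7 RPKM in E2, against 1.44 and 1.29 in EtOH (2.53). Its coordinates overlap those of Gm10684 on the other strand, whose reads the counting may not separate. In mouse build mm9, Saa3 lies at chr7:53967368-53971046 (minus strand), Alox15 at chr11:70157649-70165533 (minus strand), Slpi at chr2:164179806-164182243 (minus strand) and Vcam1, described with the receptors, at chr3:115812938-115832606 (minus strand). Serum amyloid genes are near copies of each other, and reads can be shared among them.

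**Figure D2:**
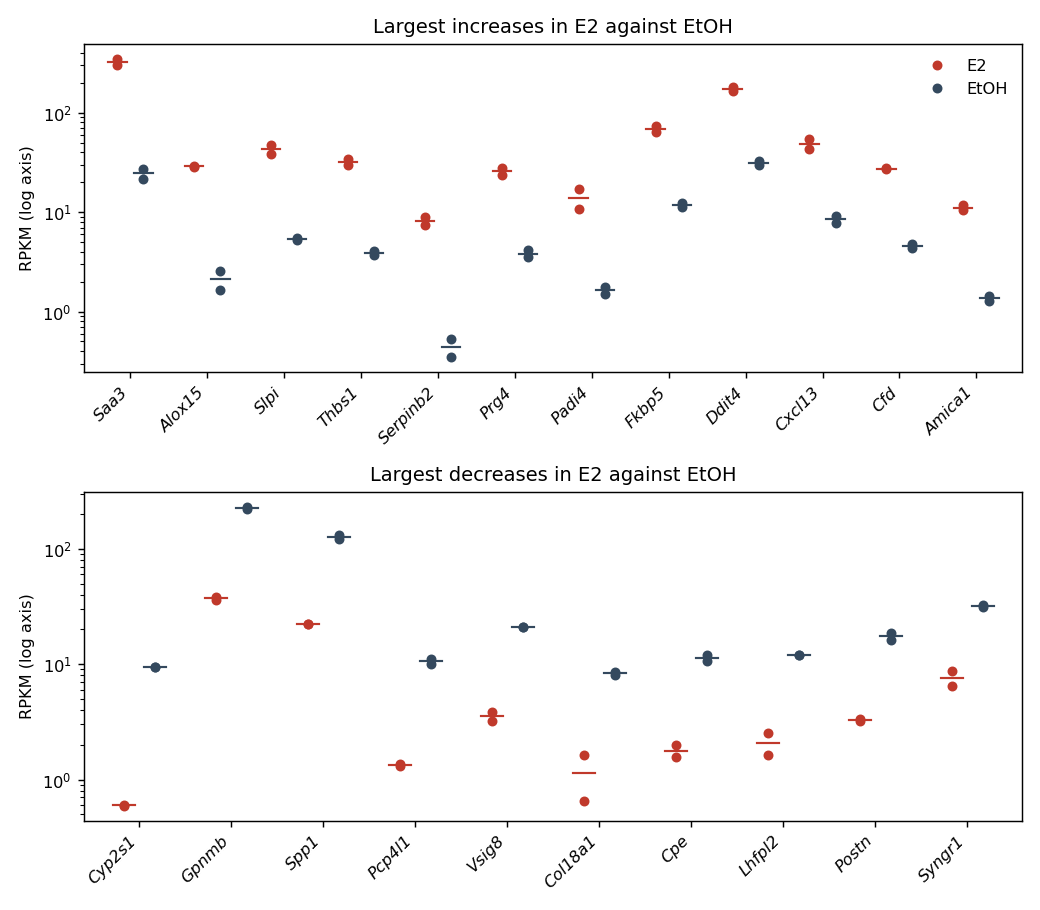
RPKM (log axis) of the 12 protein-coding genes with the largest increases (upper panel) and 10 of the 12 with the largest decreases (lower panel), with 1 point per library, E2 in red to the left of EtOH in dark blue, and the mean of each pair as a line. The points of the E2 and EtOH libraries overlap in no gene shown, which the naming rule required.

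The largest decreases were likewise of mixed function. Cyp2s1, a cytochrome P450 that metabolises retinoic acid and eicosanoids, had 0.597 and 0.594 RPKM in E2, against 9.37 and 9.47 in EtOH (-2.63, SE 0.258, adjusted p = 0.00453). It was near the level of 1 RPKM in E2, where the added 1 RPKM makes the printed change smaller than the ratio of the levels. Gpnmb, a membrane glycoprotein of lipid-loaded macrophages, had 38.6 and 36.2 RPKM in E2, against 220.2 and 229.8 in EtOH (-2.37, SE 0.122, adjusted p = 0.000542). Both E2 libraries lay far below both EtOH libraries for each. Matrix genes were also here: Col18a1, the precursor of endostatin, had 1.64 and 0.646 RPKM in E2, against 8.13 and 8.52 in EtOH (-2.06), and Postn, which encodes periostin, 3.38 and 3.2 in E2, against 16.3 and 18.5 in EtOH (-1.95). Vsig8, Pcp4l1, Cpe, Lhfpl2 and Syngr1 were also among them, with log2 changes between -2.20 and -1.78. The tables of RPKM and of reads measured different transcripts of Col18a1, Postn, Spp1, Thbs1 and Serpinb2, so that limma and edgeR compared different transcripts there.

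Promoters of called genes were read from RefSeq's mouse windows (GRCm38.p6, 250 bases before to 50 after the start), of which 8295 matched tested genes by symbol, 150 of them called higher and 175 lower. The first window of each gene was searched on both strands. The C/EBP site TTGCNNAA was in 10% of the windows of higher genes, 14.3% of lower genes and 8.33% of all matched genes. The E-box CACGTG, whose core the clock and lysosomal transcription factors share, was in 10.7%, 12% and 10.5% of these. The cell cycle element CHR, TTTGAA, was in 15.3%, 14.9% and 11.6%. The NF-kB site, GGGA and TTCC with any 2 bases between, was in 1.33%, 0% and 1.48%. The palindromes of the estrogen receptor (GGTCA and TGACC around any 3 bases) and of the glucocorticoid receptor (AGAACA and TGTTCT likewise), searched without a mismatch, were in 0 of the 8295 windows, as against 18 and 1 of all 27025 genes in the table. A match is a run of letters and not evidence of binding, and no matches of different motifs overlapped. 4 windows are shown because their genes stand for an acute-phase increase, a glucocorticoid-responsive increase, a lysosomal decrease and a mitotic decrease. Capitals mark C/EBP matches in Saa3, the E-box in Fkbp5, both in Ctsl, where the E-box comes first, and CHR matches in Top2a. All are on the minus strand and are written 5′ to 3′ along the gene, from chr7:46715627-46715926, chr17:28486100-28486399, chr13:64370471-64370770 and chr11:99024140-99024439.
Saa3: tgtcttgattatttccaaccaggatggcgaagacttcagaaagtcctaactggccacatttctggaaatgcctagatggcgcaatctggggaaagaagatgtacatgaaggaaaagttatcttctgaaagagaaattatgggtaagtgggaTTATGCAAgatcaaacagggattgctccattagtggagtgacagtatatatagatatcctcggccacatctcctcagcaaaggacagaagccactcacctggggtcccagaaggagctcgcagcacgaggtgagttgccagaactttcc
Fkbp5: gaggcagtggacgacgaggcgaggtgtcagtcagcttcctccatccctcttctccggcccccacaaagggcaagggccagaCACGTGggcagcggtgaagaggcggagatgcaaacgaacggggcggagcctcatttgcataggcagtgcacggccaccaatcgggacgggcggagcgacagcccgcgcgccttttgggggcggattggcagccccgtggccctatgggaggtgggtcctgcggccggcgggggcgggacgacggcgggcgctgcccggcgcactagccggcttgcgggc
Ctsl: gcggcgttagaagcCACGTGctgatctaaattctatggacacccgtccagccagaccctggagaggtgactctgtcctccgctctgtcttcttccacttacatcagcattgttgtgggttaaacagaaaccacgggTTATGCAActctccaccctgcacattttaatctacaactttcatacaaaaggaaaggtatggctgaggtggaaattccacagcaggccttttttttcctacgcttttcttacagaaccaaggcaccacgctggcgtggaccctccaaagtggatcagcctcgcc
Top2a: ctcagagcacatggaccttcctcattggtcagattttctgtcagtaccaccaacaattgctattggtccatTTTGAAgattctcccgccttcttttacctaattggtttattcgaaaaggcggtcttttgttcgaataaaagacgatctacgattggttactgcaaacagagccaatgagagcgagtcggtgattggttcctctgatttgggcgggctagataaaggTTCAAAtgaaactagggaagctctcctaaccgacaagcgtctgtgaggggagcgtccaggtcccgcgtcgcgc

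Genes known from large peritoneal macrophages, the resident cells of the abdominal cavity, were among the higher ones. Of 10 tested markers 6 were higher in E2 and 0 lower, with a median log2 change of 1.66 against -0.01 for all tested genes. Of the 6, Serpinb2, Selp and F5 averaged under 1 RPKM in EtOH and so passed the level filter through E2, which in part fixes the count and the median. Prg4, which encodes lubricin, had 27.7 and 23.8 RPKM in E2, against 3.52 and 4.15 in EtOH (2.66, adjusted p = 0.00123). Serpinb2, a plasminogen activator inhibitor, had 7.51 and 8.95 RPKM in E2, against 0.346 and 0.528 in EtOH (2.86). Thbs1, the platelet and matrix glycoprotein thrombospondin, had 33.9 and 29.7 RPKM in E2, against 3.73 and 4.05 in EtOH (2.93). These, with Alox15, made the marker list higher in both E2 libraries, at 138 and 123 RPKM summed over its 11 genes in E2, against 36.8 and 38.3 in EtOH. Gata6, the transcription factor that defines these cells, stayed below the level filter, with 0.089 and 0.649 RPKM in E2 and 0.497 and 0.454 in EtOH. Timd4, the phosphatidylserine receptor of resident cells, had 17.4 and 16.3 RPKM in E2 and 19.6 and 19.4 in EtOH and was not called. The share of such cells in the sorted samples was not tested.

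Coagulation, fibrinolysis and platelet adhesion genes had 5 higher, 5 lower and 11 not called of 21 tested. Of the 5 higher, F5, Selp and Serpinb2 averaged under 1 RPKM in EtOH and passed the level filter through E2, which in part fixes that count. F5, coagulation factor V, had 2.83 and 2.48 RPKM in E2, against 0.195 and 0.195 in EtOH (1.75), and Selp, the P-selectin of platelets and endothelium, 2.78 and 3.1 in E2, against 0.304 and 0.641 in EtOH (1.58). Both share coordinates with Gm16548 on the other strand. Fn1, fibronectin, had 132 and 114 RPKM in E2, against 66.0 and 68.0 in EtOH (1.06, adjusted p = 0.00635). On the other side stood F7, which starts coagulation with tissue factor, with 5.38 and 4.83 RPKM in E2, against 16.3 and 17.8 in EtOH (-1.40). Plau, the urokinase that activates plasminogen, had 49.8 and 48.1 RPKM in E2, against 130.3 and 134 in EtOH (-1.23). For each of these genes the libraries of E2 and EtOH did not overlap, as for all 200 higher and 250 lower calls. Anxa2, a subunit of a plasminogen receptor, had 346 and 337 RPKM in E2, against 687 and 722 in EtOH (-0.85). F7, Plau and Anxa2 are named after their values were seen.

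Of 19 tested genes of alternative activation, the state driven by IL-4 and IL-13, 7 were higher in E2 and 2 lower, with a median of 0.40. Arg1, arginase, had 171 and 157 RPKM in E2, against 43.6 and 48.8 in EtOH (2.0, adjusted p = 0.000761). Chil3, the chitinase-like protein Ym1, had 35.9 and 30.0 RPKM in E2, against 6.08 and 6.19 in EtOH (2.43), with reads that a near copy can share. Ccl17, a ligand of CCR4, had 7.24 and 7.87 RPKM in E2, against 2.22 and 2.37 in EtOH (1.55). Other members were lower. Retnla, the resistin-like protein that is one of the most abundant messages in these cells, had 6313 and 6282 RPKM in E2 and 8562 and 8789 in EtOH, and was slightly lower (-0.27, adjusted p = 0.00667). Clec7a, the beta-glucan receptor dectin-1, was also lower, at 30.7 and 38.4 RPKM in E2 and 72.7 and 75.5 in EtOH (-0.90).

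Among CC chemokines limma called 3 of 13 higher and 0 lower, and among CXC and CX3C chemokines 1 of 12 higher and 0 lower. Over all tested genes it called 1.82% higher and 2.27% lower. EdgeR called 7 CC chemokines higher and 1 lower, and 5 CXC and CX3C chemokines higher and 0 lower. Of all genes it tested, edgeR called 9.9% higher and 9.28% lower. Cxcl13, which attracts B cells, had 43.3 and 54.7 RPKM in E2, against 9.15 and 7.74 in EtOH (2.59, adjusted p = 0.00149). Ccl6 was already abundant, with 1751 and 1939.5 RPKM in E2, against 1216 and 1257 in EtOH (0.77), and Ccl3, a ligand of CCR1, had 149 and 129.97 in E2, against 76.3 and 78.7 in EtOH (1.03). Of 12 tested receptors of chemoattractants limma called 2 lower and 0 higher, edgeR 5 lower and 1 higher, and log2 changes were positive in 6 and negative in 6. Among the lower ones, C3ar1, the receptor of complement C3a, had 56.1 and 60.5 RPKM in E2, against 101.05 and 98.0 in EtOH (-0.57). Of 15 genes of the IL-1 family and inflammasome limma called 1, and edgeR 2 higher and 2 lower. The limma call was Nlrp3, the sensor of the inflammasome, with 17.6 and 16.4 RPKM in E2, against 5.53 and 5.04 in EtOH (1.70, adjusted p = 0.00232). Of 26 other cytokines and receptors, limma called 0, with 2 higher and 6 lower at an unadjusted p below 0.05 and 5 and 5 by edgeR.

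The estrogen receptors themselves were sparse. Esr1 had 1.72 and 0.977 RPKM in E2 and 1.24 and 1.1 in EtOH, with overlapping groups and no call (log2 change 0.21, adjusted p = 0.838). Esr2 had 0 reads in both E2 libraries and 0 and 2 reads in the EtOH libraries, and Gper1 between 2 and 26 reads, so that neither was tested. Ncoa1, a coactivator of steroid receptors, was the 1 higher gene of 10 tested receptors and coregulators, at 9.74 and 10.98 RPKM in E2, against 6.24 and 6.48 in EtOH (0.80, adjusted p = 0.0391). Greb1 and Pgr, estrogen targets of other tissues, had 0 to 4 reads in each library. Of 10 tested estrogen-metabolizing enzymes limma called 1 higher and 0 lower, edgeR 1 higher and 3 lower, and 7 log2 changes were negative. The enzyme called higher was Sult1a1, a phenol sulfotransferase, at 162 and 153 RPKM in E2, against 113 and 121 in EtOH (0.62).

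Genes known to respond to glucocorticoids held 9 higher and 0 lower of 17 tested, with a median log2 change of 0.62. Fkbp5, a cochaperone that restrains the glucocorticoid receptor, had 73.2 and 63.3 RPKM in E2, against 12.2 and 11.4 in EtOH (2.62, SE 0.0969, adjusted p = 0.000379). Ddit4, an inhibitor of mTORC1, had 183 and 165 RPKM in E2, against 33.0 and 30.0 in EtOH (2.62, SE 0.0775, adjusted p = 0.000379). Zbtb16, the zinc finger factor PLZF, had 5.44 and 5.72 RPKM in E2, against 1.77 and 1.27 in EtOH (1.56). The E2 and EtOH libraries were well apart for each. Relative to their level, the EtOH libraries of Zbtb16 differed more from each other than those of Fkbp5 and Ddit4. Klf9, a Kruppel-like factor, had 49.97 and 53.3 RPKM in E2, against 22.6 and 22.5 in EtOH (1.35). Per1 belongs to the clock as well, with 56.9 and 51.5 RPKM in E2, against 26.5 and 26.9 in EtOH (1.19). It was the 1 gene that limma called of 17 tested clock genes, of which edgeR called 4 higher and 2 lower. Nr3c1, the receptor itself, had 12.2 and 14.9 RPKM in E2 and 19.4 and 18.6 in EtOH and was not called (adjusted p = 0.424).

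Of 26 tested transcription factors of macrophages limma called 3 higher and 1 lower, beside 1.82% and 2.27% of all tested genes. Cebpb, a C/EBP factor of acute-phase and Arg1 expression, had 342 and 286 RPKM in E2, against 214 and 208 in EtOH (0.76, adjusted p = 0.019). Maf, a factor of resident macrophages, had 169.7 and 168 RPKM in E2, against 115 and 113 in EtOH (0.76), and Id2 62.8 and 58.5 in E2, against 39.7 and 41.8 in EtOH (0.75). Spi1, which encodes PU.1, was lower by a smaller step, at 229 and 239.6 RPKM in E2 and 352 and 344 in EtOH (-0.37). EdgeR called 6 of the 26 higher and 8 lower, beside 9.9% and 9.28% of all genes it tested. Of 21 tested AP-1, Egr and Nr4a factors limma called 2 higher and 1 lower, and edgeR 10 higher and 1 lower. Egr1 (235 and 221 RPKM in E2, 148 and 156 in EtOH, 0.77) and Fosb (138 and 112 in E2, 73.1 and 77.5 in EtOH, 0.91) were higher, whereas Atf3, a stress-induced repressor, had 42.4 and 38.5 RPKM in E2, against 141 and 142 in EtOH (-1.59, adjusted p = 0.00925). Socs3, the inhibitor of IL-6 and leptin receptor signalling, was also lower, with 33.5 and 26.7 RPKM in E2, against 105 and 107 in EtOH (-1.60, adjusted p = 0.00167). Its relative Socs2, which restrains growth hormone signalling, was higher at 3.45 and 4.08 RPKM in E2, against 0.755 and 1.07 in EtOH (1.48).

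Genes of lipid-associated macrophages were mostly lower, with 15 lower, 1 higher and 7 not called of 23, and a median log2 change of -0.88. Spp1, which encodes osteopontin, had 22.4 and 22.2 RPKM in E2, against 122 and 132 in EtOH (-2.27, SE 0.104, adjusted p = 0.000379). Lpl, the lipase that releases fatty acids from lipoproteins, had 219 and 245 RPKM in E2, against 675 and 671 in EtOH (-1.34). Cd9, a tetraspanin, had 48.4 and 41.2 RPKM in E2, against 122 and 131 in EtOH (-1.29), and Fabp5, a fatty acid carrier, 55.1 and 47.3 in E2, against 129.9 and 136 in EtOH (-1.17). The higher gene, named after its values were seen, was Fabp4, a fatty acid carrier that adipocytes share, with 554 and 559 RPKM in E2, against 374 and 383 in EtOH (0.75). The decrease was unequal over the list, since Apoe, the lipoprotein component, had 6979.5 and 6538 RPKM in E2 and 8420.0 and 8677 in EtOH, a small decrease (-0.14).

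Lysosomal genes were lower in part. Of 34 tested cathepsins and hydrolases 9 were lower and 0 higher, and of 17 subunits of the V-ATPase, the proton pump of the lysosome, 4 were lower and 0 higher. The medians were -0.12 and -0.20, so that the typical member moved little. Ctsl, the endopeptidase cathepsin L, had 109 and 112 RPKM in E2, against 329 and 337 in EtOH (-1.39, SE 0.0731, adjusted p = 0.000542). Ctsd, cathepsin D, had 794 and 699.5 RPKM in E2, against 1559 and 1588 in EtOH (-0.88, SE 0.0534, adjusted p = 0.00126). Lipa, the acid lipase that frees cholesterol from esters, had 120.4 and 154 RPKM in E2, against 263 and 270.3 in EtOH (-0.77). Among pump subunits the macrophage isoform Atp6v0d2 changed more than the shared ones, with 26.3 and 29.9 RPKM in E2, against 80.2 and 84.7 in EtOH (-1.33). Atp6v1b2, Atp6v0a1 and Atp6v1a had log2 changes of -0.69, -0.58 and -0.57. The promoter of Ctsl printed with those of Saa3, Fkbp5 and Top2a belongs to this group.

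Sterol synthesis genes and SREBP targets had 7 of 22 called lower and 0 higher. All 22 log2 changes were negative under the exon scaling, with a median of -0.70. Cyp51, the lanosterol demethylase, had 1.96 and 2.08 RPKM in E2, against 8.79 and 9.05 in EtOH (-1.58). Sqle, squalene epoxidase, had 2.85 and 2.12 RPKM in E2, against 8.88 and 9.13 in EtOH (-1.39). These are low levels, and edgeR on reads called 15 of the 22 lower. Of 14 tested genes of cholesterol efflux and LXR targets limma called 3 lower and 0 higher, edgeR 7 lower and 2 higher, and 4 had positive log2 changes, with a median of -0.16. Abcg1, the exporter to HDL, had 4.64 and 5.52 RPKM in E2, against 15.7 and 15.6 in EtOH (-1.29), and Pltp, the phospholipid transfer protein, 1188 and 1072 in E2, against 1876 and 1931 in EtOH (-0.56), beside an overlap with Ctsa on the other strand. The desaturases went apart, with Scd1 at 26.9 and 27.5 RPKM in E2, against 10.5 and 9.73 in EtOH (1.53), and Scd2 at 1.2 and 0.546 in E2, against 4.52 and 5.41 in EtOH (-1.60).

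**Figure D3:**
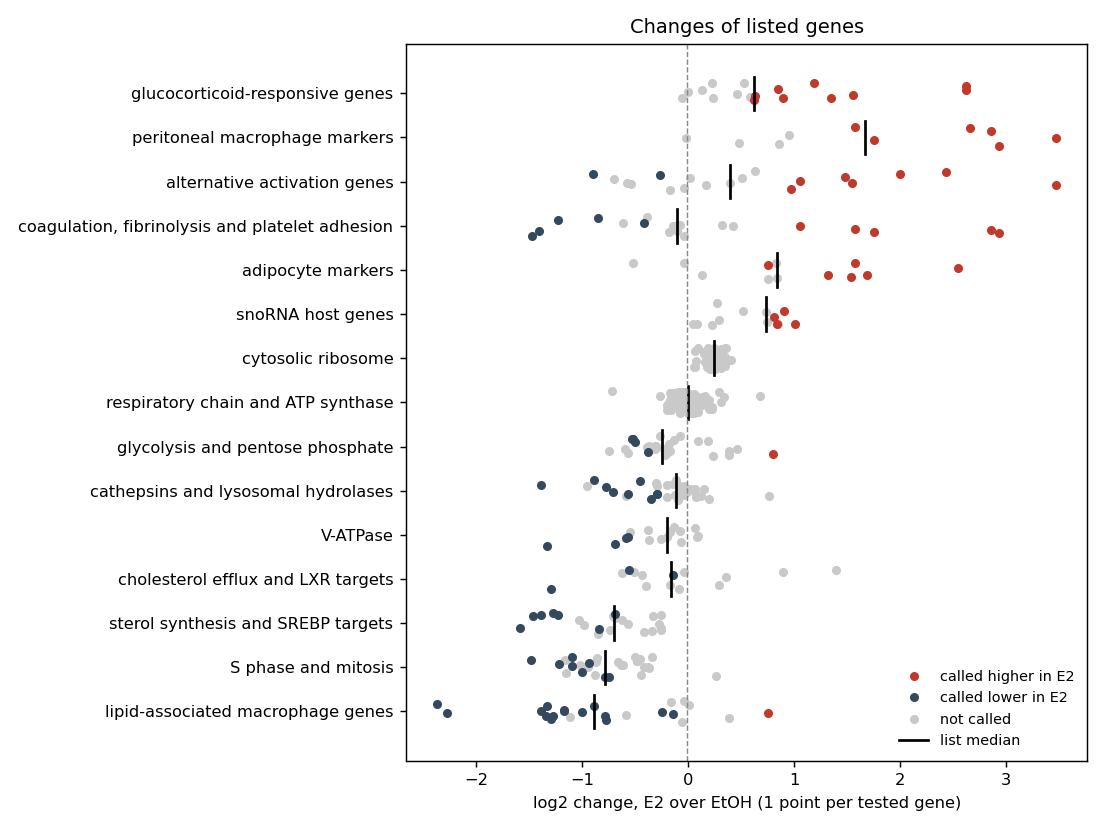
Log2 change of E2 over EtOH (horizontal axis) for each tested gene of 15 lists (rows), with called genes in red (higher) or dark blue (lower), others in grey, the list median as a black bar and the median of all tested genes as a dashed line; vertical scatter within a row has no meaning. Peritoneal macrophage markers have the highest median of these rows, at 1.66, and lipid-associated macrophage genes the lowest, at -0.88. The first median is in part fixed by 3 called markers that passed the level filter through E2.

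Surface receptors changed in both directions. Vcam1, the ligand of the integrin VLA-4 and a marker of some resident macrophages, had 135 and 141 RPKM in E2, against 31.4 and 30.5 in EtOH (2.31, SE 0.0904, adjusted p = 0.000379). Marco, a class A scavenger receptor for bacteria, had 16.2 and 12.9 RPKM in E2, against 2.46 and 2.91 in EtOH (2.26), and its relative Msr1 83.2 and 96.1 in E2, against 61.7 and 60.6 in EtOH (0.73). Cd163, the receptor that clears hemoglobin bound to haptoglobin, had 299 and 285 RPKM in E2, against 175 and 184 in EtOH (0.89). Scarb1, the HDL receptor, was lower at 12.2 and 9.72 RPKM in E2, against 29.1 and 29.2 in EtOH (-1.16). The 20 tested scavenger and efferocytosis receptors thus had 3 higher and 3 lower. Of 23 tested Toll-like receptors and adaptors 1 was higher and 2 lower, beside 1.82% and 2.27% of all tested genes. Tlr5, the flagellin receptor, had 25.7 and 22.7 RPKM in E2, against 12.3 and 11.2 in EtOH (1.17), while Tlr2, which senses lipoproteins, had 21.2 and 20.0 in E2, against 37.7 and 36.8 in EtOH (-0.64), and Cd180, a Toll-like protein without a signalling domain, 17.8 and 16.1 in E2, against 41.2 and 39.4 in EtOH (-1.02). Of 24 Fc receptors and lectins Mgl2, a galactose lectin, was higher at 1162 and 1088 RPKM in E2, against 650.2 and 664 in EtOH (0.97, adjusted p = 0.00122). The inhibitory lectin Clec12a was lower, at 55.3 and 62.5 RPKM in E2, against 125 and 128 in EtOH (-0.90). Icam1 (9.36 and 11.1 RPKM in E2, 23.5 and 27.2 in EtOH, -1.06) and Cd40, the costimulatory receptor (14.4 and 10.5 in E2, 31.3 and 30.4 in EtOH, -1.08), were lower. Cd40 was the 1 gene that limma called of 13 on the list of MHC class II presentation. In that list edgeR called 5 higher and 1 lower, and 8 log2 changes were positive and 5 negative.

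**Figure D4:**
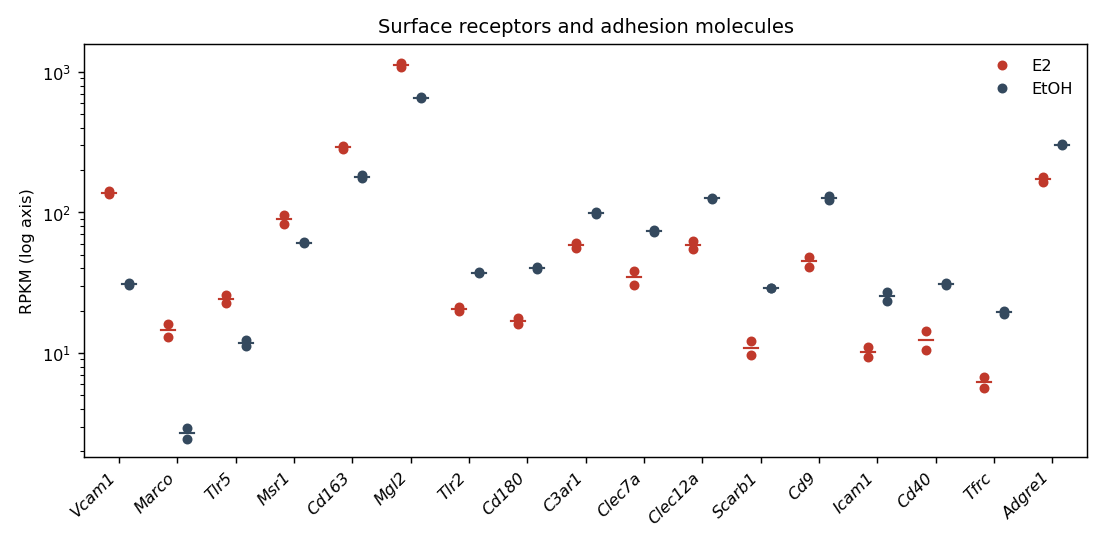
RPKM (log axis) of 17 surface receptors and adhesion molecules, with 1 point per library, E2 in red to the left of EtOH in dark blue, and the mean of each pair as a line. Vcam1, Marco, Tlr5, Msr1, Cd163 and Mgl2 stand higher in E2 and the other 11 lower. The libraries of E2 and EtOH do not overlap in any of them, as in every called gene.

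Of 18 tested iron genes 2 were higher and 3 lower, with a median of -0.04, beside 1.82% and 2.27% of all tested genes. Tfrc, the transferrin receptor, had 5.65 and 6.78 RPKM in E2, against 19.9 and 19.1 in EtOH (-1.34, adjusted p = 0.0136), and Steap3, the endosomal ferrireductase that works with it, 13.2 and 10.2 in E2, against 28.1 and 29.8 in EtOH (-1.07). Slc40a1, ferroportin, the exporter, was higher at 38.9 and 40.3 RPKM in E2, against 29.5 and 30.1 in EtOH (0.59, adjusted p = 0.0489). The ferritin light chain Ftl1 was lower by a small step (5810.1 and 5146 RPKM in E2, 7138 and 7286 in EtOH, -0.20), and the heavy chain Fth1 was not called (4109 and 3949 in E2, 3861 and 4116 in EtOH).

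Eicosanoid genes had 3 higher and 3 lower of 22. Beside Alox15, Ephx2, the soluble epoxide hydrolase, had 3.01 and 3.35 RPKM in E2, against 0.81 and 1.1 in EtOH (1.25), and Pla2g7, the phospholipase that degrades platelet-activating factor, 201 and 202 in E2, against 139 and 140.1 in EtOH (0.72). Hpgd, which inactivates prostaglandins, was lower at 48.7 and 55.6 RPKM in E2, against 100.8 and 99.9 in EtOH (-0.74). So enzymes on both the making and the breaking side of these lipids were called. Among matrix proteases Mmp12, the macrophage elastase, had 23.02 and 26.8 RPKM in E2, against 68.0 and 72.6 in EtOH (-1.28), while Mmp9, a gelatinase, had 49.0 and 42.0 in E2, against 31.8 and 30.9 in EtOH (0.71). Of 17 growth factors 1 was higher and 3 lower, beside 1.82% and 2.27% of all tested genes. Vegfa, the vessel growth factor, had 8.12 and 6.62 RPKM in E2, against 1.55 and 1.92 in EtOH (1.78, adjusted p = 0.00735). Igf1 had 74.7 and 66.4 RPKM in E2, against 123 and 129 in EtOH (-0.63), and Pdgfb 6.38 and 5.28 in E2, against 13.8 and 11.9 in EtOH (-0.85). The 3 growth factors thus did not share a direction. Gpx3, a secreted glutathione peroxidase, had 147 and 141 RPKM in E2, against 53.1 and 55.1 in EtOH (1.59, adjusted p = 0.000526). It was the 1 gene that limma called of 21 of the NRF2 and redox list, of which edgeR called 3 higher and 3 lower.

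Of 29 tested genes of S phase and mitosis 8 were called lower and 0 higher, 28 had negative log2 changes, and the median was -0.78. Ube2c, the ubiquitin conjugase of mitotic exit, had 8.91 and 7.42 RPKM in E2, against 27.4 and 27.9 in EtOH (-1.48). Rrm2, a ribonucleotide reductase subunit, had 1.83 and 2.92 RPKM in E2, against 7.36 and 7.67 in EtOH (-1.21). Top2a, the topoisomerase whose promoter is printed here, had 5.14 and 5.26 RPKM in E2, against 12.9 and 14.9 in EtOH (-1.10, adjusted p = 0.0192). Cdkn1a, the CDK inhibitor p21, was higher at 83.7 and 75.3 RPKM in E2, against 49.96 and 51.4 in EtOH (0.83), and Ccnd1, cyclin D1, lower at 26.3 and 21.7 in E2, against 44.7 and 43.1 in EtOH (-0.66). Of 17 BCL2 family genes the BH3-only death genes Bmf (14.1 and 10.7 RPKM in E2, 5.13 and 5.2 in EtOH, 1.29) and Pmaip1 (6.63 and 5.46 in E2, 2.68 and 3 in EtOH, 1.04) were higher and 0 lower. Over all tested genes 1.82% were higher and 2.27% lower.

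Of 28 genes of glycolysis and the pentose phosphate pathway limma called 1 higher and 4 lower and edgeR 3 higher and 13 lower, with 21 negative log2 changes and a median of -0.25. Examples were Ldha at 151 and 139.8 RPKM in E2, against 241 and 238 in EtOH (-0.52), and Pfkfb3, which makes the activator of phosphofructokinase, at 18.2 and 21.4 in E2, against 12.3 and 12.7 in EtOH (0.80). Of 73 respiratory chain and ATP synthase genes limma called 0, with 0 and 0 at an unadjusted p below 0.05 and 0 by edgeR, and a median of -0.01. Of 29 TCA cycle and beta-oxidation genes limma called 0, with 0 higher and 7 lower unadjusted, and edgeR called 1 higher and 7 lower. Cytosolic ribosomal proteins showed how far a call depends on the test: limma called 0 of 76, with 1 higher unadjusted, whereas edgeR called 65 higher. All 76 log2 changes were positive relative to exon reads, between 0.06 and 0.41. As deposited 61 of 76 were positive, so the direction of the others depends on the scaling. The list median was 0.24 relative to exon reads and 0.05 as deposited, against -0.01 and -0.18 for all tested genes. In the unfolded protein response limma called 0 of 21, with 4 higher unadjusted and 10 higher by edgeR. Of 37 proteasome genes limma called 0, with 1 higher and 1 lower unadjusted and likewise by edgeR.

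Of 4 tested long RNAs of the nucleus 2 were higher and 0 lower. Malat1, which stays in nuclear speckles, had 359 and 506 RPKM in E2, against 200.1 and 198 in EtOH (1.29, SE 0.177, adjusted p = 0.0136), and Neat1, the RNA of paraspeckles, 101.5 and 97.0 in E2, against 49.6 and 53.7 in EtOH (1.12). The E2 libraries differed more from each other in Malat1 than the EtOH libraries did, and the library with the lower exon share, E2 replicate 2, had the higher level. Of 13 host genes of small nucleolar RNAs 4 were higher and 0 lower, with 13 positive log2 changes and a median of 0.73. Gas5 had 35.8 and 35.0 RPKM in E2, against 22.2 and 20.3 in EtOH (0.90), and Snhg8 55.9 and 54.9 in E2, against 35.1 and 35.1 in EtOH (0.83). The part of the lower exon share in these increases was not tested. Among all called genes 21 were transcripts under 300 bases, 9 higher and 12 lower, with 3 to 183 reads over the 4 libraries. They include Snord57, Snord8 and Mir707 among the largest increases and Mir3076, Mir7657 and Mir5114 among the largest decreases. Each of these lies inside a longer gene, as Snord57 in Nop56 and Mir3076 in Tkt, and the reads cannot be told from those of the host transcript or its precursor.

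Genes near absence in 1 group passed the level filter through the other. 8 genes had under 0.5 RPKM in both EtOH libraries and at least 2 in both E2 libraries, and 19 the reverse, most of them small RNAs. The E2 libraries held fewer reads, so a small RNA with few reads in EtOH can have 0 in E2. Mir343, for example, had 4 and 7 reads in EtOH and 0 in both E2 libraries. The part of depth in these counts was not tested. Among called genes of the lists, 8 higher ones averaged under 1 RPKM in EtOH (F5, Selp, Serpinb2, Socs2, Ephx2, Ly6c2, Prm1 and Prm2) and 2 lower ones, Scd2 among them, under 1 RPKM in E2, so their counts were in part fixed by the filter. Dusp9, a phosphatase of MAP kinases, had 0 reads in both E2 libraries and 230 and 390 reads in the EtOH libraries. Taking 3 reads over the E2 group as the limit that a count of 0 allows, it was at least 41.9-fold lower in E2. Nptx1, a neuronal pentraxin, had 0.295 and 0.392 RPKM in E2, against 3.68 and 4.19 in EtOH, and Cd276, the checkpoint ligand B7-H3, 0.446 and 0.366 in E2, against 3.32 and 4.46 in EtOH. On the E2 side stood Akr1b7, an aldo-keto reductase, with 4.36 and 2.82 RPKM in E2, against 0.402 and 0.468 in EtOH. Sperm genes were there as well: Prm1, a protamine, had 5.37 and 3.59 RPKM in E2, against 0.114 and 0.122 in EtOH, and Prm2 4.12 and 2.29 in E2, against 0.146 and 0.35 in EtOH. Of 12 markers of epididymis, testis and sperm, 4 were tested and 2 called higher, their summed level was 20.9 and 11.7 RPKM in E2 and 3.28 and 2.30 in EtOH, and 3 were at 0 in all 4 libraries. The source of these reads was not tested.

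Markers of other cells that fat holds were also called. Of 12 adipocyte markers 6 were higher and 0 lower, and their summed level was 765 and 774 RPKM in E2, against 463 and 476 in EtOH. Most of each sum was Fabp4, which the list of lipid-associated macrophage genes also holds. Car3, a carbonic anhydrase, had 92.9 and 90.6 RPKM in E2, against 30.5 and 33.4 in EtOH (1.69), and Pck1, which makes glycerol precursors, 5.77 and 6.7 in E2, against 1.58 and 1.88 in EtOH (1.57). The defining Adipoq, adiponectin, had 7.05 and 8.74 RPKM in E2 and 5.05 and 4.77 in EtOH without a call, and Plin1, the adipocyte droplet coat, 0.996 and 2.03 in E2 and 1.83 and 1.09 in EtOH. Of 11 stromal markers 4 were lower and 0 higher, with a summed level of 416 and 394 RPKM in E2 and 578 and 578 in EtOH. Col1a1 had 9.24 and 7.65 RPKM in E2, against 26.3 and 26.6 in EtOH (-1.37), and Col3a1 27.8 and 27.8 in E2, against 64.6 and 63.7 in EtOH (-0.99), though Dcn, decorin, was not called. Of 12 tested monocyte markers 3 were higher and 1, S100a4, lower, with 6 positive and 6 negative log2 changes. Summed over the 14 listed genes, their level was 1456 and 1377 RPKM in E2, against 1868 and 1942 in EtOH. Ly6c2 had 5.88 and 4.06 RPKM in E2, against 0.228 and 0.849 in EtOH (2.13), and passed the level filter through E2. It has a near copy in Ly6c1, which was not called. Ccr2 had 19.8 and 26.4 RPKM in E2 and 35.3 and 35.2 in EtOH without a call. Of 13 neutrophil markers 4 were tested, Mmp9 was called, and Ly6g, Camp and Elane were at 0 in the 4 libraries. Of 5 tested dendritic cell markers 1 was higher, Siglech, a marker of plasmacytoid cells, with 18.3 and 21.7 RPKM in E2, against 9.83 and 9.14 in EtOH (1.18, adjusted p = 0.0101). Of 8 eosinophil markers 1 was tested, Ear2, which was lower at 41.8 and 35.7 RPKM in E2, against 92.5 and 92.5 in EtOH (-1.05), and 2 were at 0. Lists of T or NK, B, mast, erythroid, endothelial and mesothelial cells had 0 calls by limma, and edgeR called 2 endothelial and 2 mesothelial genes lower. The part of these cells in the changes of shared genes such as Cfd, Scd1 and Fabp4 was not tested.

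Some gene families, chosen after their values were seen, had several called members. Limma left most members uncalled in all but the Ear ribonucleases. EdgeR called lower 8 of 9 annexins, 7 of 10 tubulins and 5 of 11 actin and Arp2/3 genes. It called higher 4 of 9 Ms4a genes, and called 0 members of these 4 families the other way. Without regard to calls, the log2 change had the opposite sign in 1 of 9 annexins, 3 of 11 actin and Arp2/3 genes and 1 of 9 Ms4a genes. Of 9 tested annexins, calcium-dependent membrane binders, 3 were lower and 0 higher. Anxa1, an anti-inflammatory annexin, had 117 and 112 RPKM in E2, against 356 and 371 in EtOH (-1.47). Of 9 tested Ms4a membrane proteins 3 were higher and 0 lower, with Ms4a4a at 239 and 250.4 RPKM in E2, against 88.1 and 85.8 in EtOH (1.68). Tubulins had 3 lower of 10, such as Tuba1a with 29.5 and 25.9 RPKM in E2, against 58.6 and 60.6 in EtOH (-0.89), and actins with the Arp2/3 complex 3 lower of 11, of which Actb changed by -0.24. All 4 tested Ear ribonucleases were lower. Rnase2a had 71.9 and 75.7 RPKM in E2, against 257 and 272 in EtOH (-1.64), while Ear2, Ear3 and Ear12 overlap each other in the table and cannot be told apart.

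The most abundant messages in E2 were Cd74, Apoe, Retnla, Ftl1, H2-Aa, Fth1, Tmsb4x, Lyz2, Sepp1 and C1qb. Lyz2, lysozyme, had 3754 and 3585 RPKM in E2, against 5725 and 5806 in EtOH (-0.46, adjusted p = 0.000983). Cd74, the invariant chain of MHC class II, had 8997 and 8352 RPKM in E2 and 7930.4 and 8123 in EtOH, and H2-Aa 5079 and 4818 in E2 and 4324 and 4403 in EtOH. Neither was called, as each passed relative to exon reads and not as deposited.

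The other estrogen of the series, 4-OHE1, differs from E2 by a ketone in place of the D-ring hydroxyl and by an added hydroxyl that makes a catechol of the aromatic ring. Doses, intervals and duration were matched, so E2 was set against 4-OHE1 in the model of all 6 libraries, as a single pair of compounds. Of the 11014 genes 787 were higher in E2 (7.15%) and 245 lower (2.22%). Exons took 62.5% and 60.8% of the tags in 4-OHE1, less than in E2, and the part of that difference in these counts was not tested. The genes given next were picked after their values were seen. Slpi had 47.9 and 38.7 RPKM in E2, 0.125 and 0 in 4-OHE1 and 5.25 and 5.51 in EtOH, and its log2 difference of E2 over 4-OHE1 was 5.54 (95% interval 5.11 to 5.97, adjusted p = 9.18e-05). Arg1 had 171 and 157 RPKM in E2, 14.6 and 13.5 in 4-OHE1 and 43.6 and 48.8 in EtOH (3.21, adjusted p = 9.13e-05). Saa3 had 348 and 306 RPKM in E2, 33.5 and 25.9 in 4-OHE1 and 21.8 and 27.4 in EtOH (3.17, adjusted p = 0.000322). For these genes E2 was above both other groups.

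Other genes that were higher with E2 were higher still with 4-OHE1. Fkbp5 had 73.2 and 63.3 RPKM in E2, 152 and 159 in 4-OHE1 and 12.2 and 11.4 in EtOH, a log2 difference of E2 over 4-OHE1 of -1.44 (95% interval -1.68 to -1.21, adjusted p = 0.00161). Zbtb16 had 5.44 and 5.72 RPKM in E2, 27.5 and 28.4 in 4-OHE1 and 1.77 and 1.27 in EtOH (-2.42). Vcam1 had 135 and 141 RPKM in E2, 181 and 199 in 4-OHE1 and 31.4 and 30.5 in EtOH (-0.72). Some genes were not called between the estrogens, which does not show that they respond alike. Nlrp3 had 17.6 and 16.4 RPKM in E2 and 15.8 and 15.5 in 4-OHE1, with a 95% interval of the log2 difference of -0.44 to 0.16, and Klf9 49.97 and 53.3 in E2 and 45.8 and 52.5 in 4-OHE1, with an interval of -0.47 to 0.09. Alox15, with 29.3 and 28.5 RPKM in E2, 1.63 and 0.955 in 4-OHE1 and 1.64 and 2.56 in EtOH, belongs with Saa3 and Slpi.

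**Figure D5:**
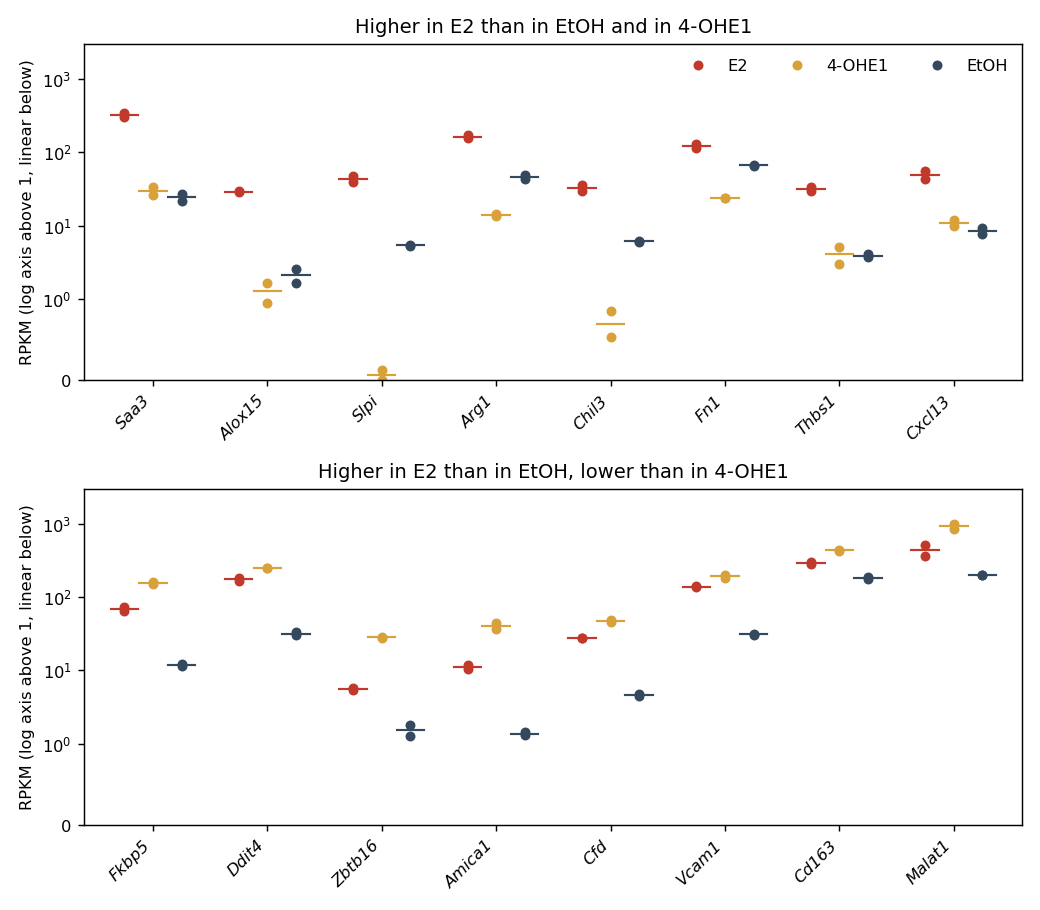
RPKM of 16 genes called higher in E2 than in EtOH (log axis above 1 RPKM, linear from 0 to 1), with 1 point per library and the mean of each pair as a line, in the order E2 (red), 4-OHE1 (ochre) and EtOH (dark blue). The upper 8 genes are called higher in E2 than in 4-OHE1, as Slpi at 47.9 and 38.7 against 0.125 and 0 RPKM, and the lower 8 are called lower in E2 than in 4-OHE1.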

How the data were processed

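Macrophage RNA of 2 E2, 2 EtOH and 2 4-OHE1 libraries was sequenced on a HiSeq2500 after KAPA mRNA HyperPrep preparation, per the labels' protocols. Build mm9 and the tools STAR, HOMER, edgeR and DESeq2 are named, with no version, in the submitters' processing notes. HOMER counted reads in RefSeq exons and kept 1 isoform of a gene, per the file headers; strand use is not given in the sources used here. The deposited RPKM table is scaled to all tags of a library. The signal columns of the deposited edgeR table are counts scaled to a common total, and each of the 61418 values above 0 came out whole within 0.05 after division by 1 factor per library. In that table, the authors also deposited log2 fold changes, p-values and adjusted p-values from edgeR, per the file headers; at 0.05 they hold 1199 genes higher and 1343 lower, and no result here rests on them.

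Limma-trend (limma 3.58.1, R 4.3.3) was fitted to log2(RPKM + 1) with all 6 libraries in 1 model, without a replicate block, two-sided, under 2 scalings; it took the place of the count test since no raw counts were given. Replicates varied by a median of 5.75% in E2 and 2.27% in EtOH (coefficient of variation, 1256 genes with a mean of at least 50 RPKM). Intervals cover this spread, and bounds on 0 reads counting error only. EdgeR 4.0.16 and DESeq2 1.42.0 on recovered reads were alternatives, with other pseudocounts, filters and scalings, a replicate block and each library left out. Genes were named as the 15 largest called changes in each direction with at least 5 RPKM and no overlap, up to 4 per list, the receptors and sort markers, and the 10 most abundant, with others marked where given; some of these are not reported here. The members and lists were chosen with earlier results of these data known. Transcripts differ between the tables for 3051 of 24421 genes.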

Additional observations from a re-analysis of the deposited data

How the results depend on the processing

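The number of called genes depended on the test and on how the spread was estimated. Against 200 genes higher in E2 and 250 lower, edgeR on reads gave 1278 and 1198, with RLE size factors 1285 and 1183, and without a filter 1296 and 1585, and DESeq2 gave 897 and 783. With limma on the 4 E2 and EtOH libraries alone the counts were 409 and 663. Relative to exon reads alone 350 genes were higher, and as deposited 618 were lower. Leaving out each of the 6 libraries in turn gave 22 to 429 higher and 14 to 664 lower; the low ends came without an EtOH library and the high ends without a 4-OHE1 library, whose spread enters the shared estimate. A pseudocount of 0.1 RPKM, no filter and a filter at 5 RPKM left both counts within 1.5 times of the reported ones. So did, chosen after seeing the data, only transcripts of at least 300 bases with 100 reads. The genes called were less alike than the counts. Of the 200 higher and 250 lower calls, no filter kept 129 and 145, and the pseudocount of 0.1 RPKM 172 and 209. With fewer genes tested, the filter at 5 RPKM kept 162 and 214, and the limit on bases and reads 186 and 238.

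The replicate numbers did not pair the samples, with correlations of same-numbered deviations of 0.002 between E2 and EtOH, 0.013 between E2 and 4-OHE1 and -0.032 between 4-OHE1 and EtOH. With the replicate block limma called 156 genes higher and 185 lower, edgeR 1177 and 1187, and limma on the 4 libraries alone, chosen after seeing the data, 455 and 780. Of the named genes 2 changed sign, neither of them called: Esr1, whose log2 change ran from -0.0158 without E2 replicate 1 to 0.43 without E2 replicate 2, and C1qb, at -0.0095 as deposited. Of the 142 called named genes 80 kept their call under all alternatives that used 2 libraries a group, and 20 also without each library. With 2 libraries a group and 5349386 and 5606659 exon reads in E2, genes of low level limit what could be called.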
